A study of Homo sapiens with 6 samples.

Results

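The TRIM family was followed by gene symbol through an RNA-seq count table of HCT116 cells, an established human colorectal carcinoma line. Genes whose symbol is TRIM followed by a digit were taken, all but 1 of them, which gave 48 of the 15284 genes listed for both knockout lines. The study set cells with a CRISPR knockout of the transmembrane mucin gene MUC3A beside control cells. There were 3 groups of 2 libraries: WT, KO1 and KO2. KO1 and KO2 cells carried 1 or the other of 2 guides against MUC3A, delivered with Cas9 by a lentiviral vector at a multiplicity of infection of 10 and selected with 2 µg/mL puromycin for 72 h. WT cells are called wild type in the sample labels and a negative control line in the protocol, which describes a scrambled control virus. The multiplicity of infection and the puromycin selection are recorded for the KO1 and KO2 samples only. The labels do not say that the knockout lines were single clones, and they name no separate cultures behind the 2 libraries of each group. All p-values here thus describe variation from library to library, part or all of which can be technical.

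TRIM proteins share an amino-terminal tripartite motif, in which a RING finger is followed by B-boxes and a coiled coil. The RING finger recruits ubiquitin-conjugating (E2) enzymes, and the carboxy-terminal domain, most often a PRY-SPRY fold, selects the substrate. Many members are induced by interferon and act on viral capsids or on the signalling proteins of innate immunity, while others bind chromatin, microtubules or membranes. Some members, among them TRIM14, TRIM29 and TRIM44, lack the RING finger, so the family symbol does not by itself make a gene product a ubiquitin ligase.

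Of the 48 genes, 41 had enough reads to be tested, among 12678 tested genes in all. The other members (TRIM31, TRIM43B, TRIM50, TRIM55, TRIM67, TRIM69 and TRIM71) had 0 to 5 reads in each library. Total counts were 13638724 to 17830282 per library, so that 3 reads, the limit that a count of 0 allows, correspond to 0.157 to 0.236 CPM (reads scaled to the size of the library). One library of each group has a column name starting with HCT and the other a name starting with HCT116. No label explains this prefix, and the libraries are called HCT set or HCT116 set after it. More genes were called between the sets than between any of the groups. All tests therefore carried the set as a term, and without it edgeR called 0 TRIM genes and 0 genes of any kind in each comparison between groups (unadjusted p under 0.05 for 2 of 41 TRIM genes in each, beside 1.36% of all genes for KO1 against WT, 2.44% for KO2 against WT and 4.05% when the guides were compared).

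MUC3A transcripts were at 52.7 and 25.1 CPM in WT (HCT and HCT116 set), 52.9 and 28.6 CPM in KO1 and 30.0 and 24.6 CPM in KO2. The log2 fold change was 0.08 ± 0.18 (SE) in KO1 and −0.43 ± 0.19 in KO2, with edgeR adjusted p of 0.962 and 0.237, which says nothing of the protein. Colorectal epithelial markers (6 genes) summed to 4614 to 6344 CPM in WT, 6073 to 11674 CPM for KO1 and 3873 to 6764 CPM for KO2, with VIL1 at 0 to 0.195 CPM. KRT8 and KRT18 made up most of this sum. Their log2 fold changes in KO1 were 0.67 and 0.65, beside 0.42 for CDH1, −0.08 for EPCAM and −0.31 for CDX2. Of these 5 tested markers 0 were called in KO1 against WT. Leukocyte markers summed to 9.57 to 9.99 CPM in WT, 21.0 to 21.9 CPM in KO1 and 6.39 to 14.1 CPM in KO2. Most of that sum was CD68, and the pan-leukocyte gene PTPRC was at 0 to 0.0691 CPM. Fibroblast markers summed to 35.4 to 67.5 CPM, of which COL1A1 made up nearly all.

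Interferon-induced genes are often bound near their start by interferon regulatory factors, which read pairs of GAAA. In RefSeq promoters of GRCh38.p14 (250 bases before to 50 bases after each start), GAAANNGAAA on either strand, read as TTTCNNTTTC on the other, occurred in 996 of 27305 promoters (3.65%). It occurred in 7 of the 35 TRIM promoters in that table and in 4 of the 6 that belong to interferon-inducible members. The shorter AANNGAAA, chosen after the sequences were seen and contained in every match of the longer one, occurred in 23.2% of all promoters, in 10 of 35 TRIM promoters and in 6 of 6 interferon-inducible ones. The 70 bases before the start are shown for 3 interferon-inducible members whose transcripts are described next, with the match in capitals. They lie at chr11:5685075-5685144 (minus strand), chr9:98119223-98119292 (minus strand) and chr6:25962732-25962801 (plus strand). TRIM5 and TRIM14 hold the longer motif and TRIM38 the shorter one.
TRIM5: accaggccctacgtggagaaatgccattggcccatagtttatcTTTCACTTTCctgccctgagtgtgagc
TRIM14: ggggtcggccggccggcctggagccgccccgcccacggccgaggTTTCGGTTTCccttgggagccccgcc
TRIM38: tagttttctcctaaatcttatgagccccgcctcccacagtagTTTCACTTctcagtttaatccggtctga
A match describes these letters only and is not evidence of a bound factor.

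Among the 41 tested members, TRIM28 was the most abundant transcript per kilobase of exon in WT cells, at 341 CPM per kb. It was at 197 in the HCT library and 484 in the HCT116 library. Other TRIM genes, among them TRIM27 and TRIM39, are not listed for both knockout lines and have no place in this order. TRIM28 is the corepressor through which KRAB zinc-finger proteins silence chromatin. TRIM47 (52.6 CPM per kb), TRIM65 (25.0), TRIM25 (21.0) and TRIM37 (15.3) followed. From TRIM28 to TRIM37 the WT libraries of each gene lay above those of the next. The gap was narrow between TRIM65 and TRIM25, with the lower library of TRIM65 at 21.5 and the higher one of TRIM25 at 21.3. This order depends on the exon lengths, which came from GENCODE 29. Below TRIM37 most neighbours in the order overlapped, starting with TRIM32 and TRIM8, both at 11.0 CPM per kb. TRIM22 and TRIM29 were the lowest tested members, at 0.152 and 0.132 CPM per kb. The interferon-inducible members were spread over this order, from TRIM25 in the fourth place to TRIM22 in the last but one.

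**Figure D1:**
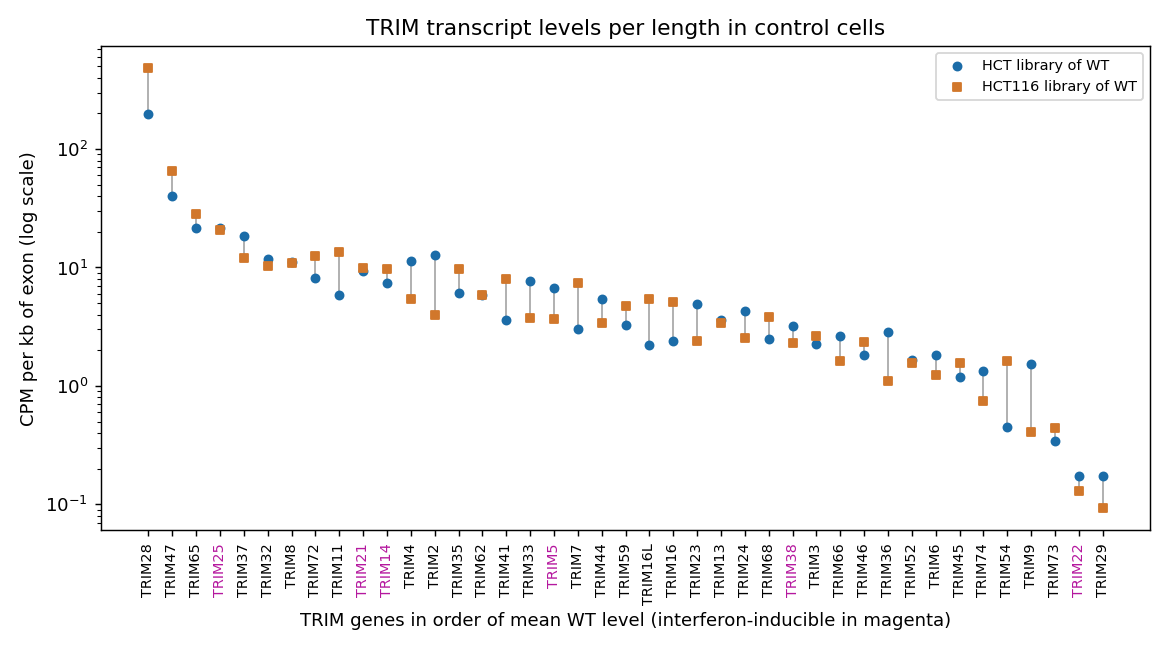
CPM per kb of exon (log scale) of the 41 tested TRIM genes in the HCT library (circles) and the HCT116 library (squares) of WT, in order of the mean, with a line joining the libraries and interferon-inducible genes named in magenta. TRIM28 stands at 341 CPM per kb on average and TRIM29 at 0.132.

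With the first guide, 2 of the 41 tested TRIM genes changed: TRIM29 rose and TRIM38 fell. They make up 4.88% of the tested members, while 1.03% of all tested genes were called in KO1 against WT (0.678% higher and 0.347% lower). With the second guide TRIM29 and TRIM45 rose and no TRIM gene fell, again 4.88% of members, beside 4.61% of all tested genes (2.15% higher and 2.47% lower). The median log2 fold change of the tested members was −0.0047 in KO1 and 0.16 in KO2, and over all tested genes it was 0.0012 and −0.00013. Both comparisons share the same WT libraries, so they are not independent of each other.

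TRIM29 (chr11:120111275-120185529 in GENCODE 29 on GRCh38, minus strand), a RING-less family member found in stratified epithelia and many carcinomas, was the member with the largest change. It had 27 and 12 reads in WT (1.76 and 0.944 CPM in the HCT and HCT116 set). In KO1 it had 88 and 116 reads (5.90 and 8.97 CPM) and in KO2 85 and 81 reads (4.45 and 5.60 CPM). All 4 knockout libraries were above both WT libraries, in each set. The rise was 5.25-fold in KO1 (log2 2.39 ± 0.38, edgeR adjusted p = 0.0119) and 3.57-fold in KO2 (log2 1.84 ± 0.38, edgeR adjusted p = 0.0208). KO2 and KO1 differed by −0.56 ± 0.32 on the log2 scale, with an edgeR adjusted p of 0.318. The calls depended on the low HCT116 library of WT: when it was left out the log2 fold change was 1.82 in KO1 and 1.27 in KO2, with edgeR adjusted p of 0.0739 and 0.202. Without the HCT library of WT the log2 fold changes were 3.17 and 2.63, and with any library but the HCT116 one of WT left out the edgeR adjusted p was at most 0.0159 in KO1 and 0.0125 in KO2. In the authors' deposited table TRIM29 was the only family member with a p-value under 0.05 (log2 fold change 2.44, p-value 0.000803 in KO1 and 1.84, 0.00978 in KO2), and no member had an adjusted p under 0.05 there. These are bulk libraries, in which more cells that express a gene and more RNA per cell cannot be told apart.

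TRIM38 (chr6:25962802-25991226, plus strand), an interferon-inducible ligase that dampens Toll-like receptor and TNF signalling, was the member on which the guides differed most. Its level was 30.0 and 21.8 CPM in WT, 14.3 and 13.4 CPM in KO1, and 40.3 and 35.0 CPM in KO2. The 3 groups did not overlap: KO1 was the lowest in both sets and KO2 the highest. In KO1 the level fell by 0.89 ± 0.17 on the log2 scale (1.86-fold, edgeR adjusted p = 0.0280). In KO2 it was 0.55 ± 0.16 above WT with an edgeR adjusted p of 0.0810, so this difference did not pass. With 1 library left out it ran from 0.41 to 0.71 on the log2 scale. When genes with few reads were kept in the test, TRIM38 was called in KO2 against WT. In that fit 949 genes of any kind were called, beside 585 with those genes left out. The direct comparison of KO2 with KO1 gave 1.44 ± 0.17 on the log2 scale (2.71-fold, edgeR adjusted p = 0.000308), at 1.48 within the HCT set and 1.38 within the HCT116 set. That call held with each library left out in turn (log2 1.32 to 1.55, edgeR adjusted p of at most 0.00788), whereas without the set term its adjusted p was 0.478. The fall in KO1 was lost without the HCT library of WT (log2 −0.73, edgeR adjusted p = 0.208), the HCT library of KO1 (−0.77, 0.420) or the HCT116 library of KO1 (−1.01, 0.0711), and was at most 0.0369 with any other library left out. An antisense transcript overlaps TRIM38 in the annotation but is not among the genes of the tables, and the sources do not say whether counting was stranded. CD68 moved the other way in KO1 (17.5 to 19.0 CPM against 7.55 to 8.50 CPM in WT), by a difference that did not pass (log2 1.21 ± 0.30, edgeR adjusted p = 0.106). The part of CD68 in the TRIM38 and TRIM29 values was not tested.

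TRIM45 (chr1:117111060-117122587, minus strand), which ends in a filamin-type domain and can repress MAP kinase signalling, rose with the second guide alone among the comparisons with WT. It was at 5.21 and 6.76 CPM in WT, 5.16 and 7.11 CPM in KO1, and 12.5 and 11.6 CPM in KO2. Both KO2 libraries were above the 4 others, while WT and KO1 overlapped. The rise in KO2 was 2.04-fold against WT (log2 1.03 ± 0.24, edgeR adjusted p = 0.0350) and 2.00-fold against KO1 (log2 0.997 ± 0.24, edgeR adjusted p = 0.0245). In KO1 the log2 fold change was 0.03 ± 0.25, with an edgeR adjusted p of 0.988. The call against WT was lost when either WT library or the HCT library of KO2 was left out (edgeR adjusted p of 0.233, 0.108 and 0.0701). That against KO1 was lost without the HCT library of KO1 or of KO2 (edgeR adjusted p of 0.341 and 0.0777). With any other library left out these adjusted p were at most 0.0412 and 0.0402. Over the leave-outs that lost a call the log2 fold change stayed between 0.73 and 1.15.

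TRIM9 (chr14:50975262-51096061, minus strand), a microtubule-associated ligase best known from neurons, differed between the guides and still more between the sets. Its level was 13.8, 19.0 and 6.23 CPM in WT, KO1 and KO2 of the HCT set and 3.62, 4.87 and 3.11 CPM in the HCT116 set. Within each set the order was KO1, WT, KO2, but the groups overlapped across sets. KO2 was below KO1 by 1.21 ± 0.28 on the log2 scale (2.31-fold, edgeR adjusted p = 0.0205), at −1.59 inside the HCT set and −0.63 inside the HCT116 set. Neither guide passed against WT (log2 0.44 ± 0.27 in KO1 and −0.77 ± 0.29 in KO2, edgeR adjusted p of 0.730 and 0.165). In KO2 against WT the log2 fold change was −1.15 without the HCT116 library of KO2. Without the HCT library of KO2 the difference between the guides was −0.66 with an edgeR adjusted p of 0.209, and without the HCT library of KO1 it was −0.92 with 0.393, while the other leave-outs gave at most 0.00567.

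**Figure D2:**
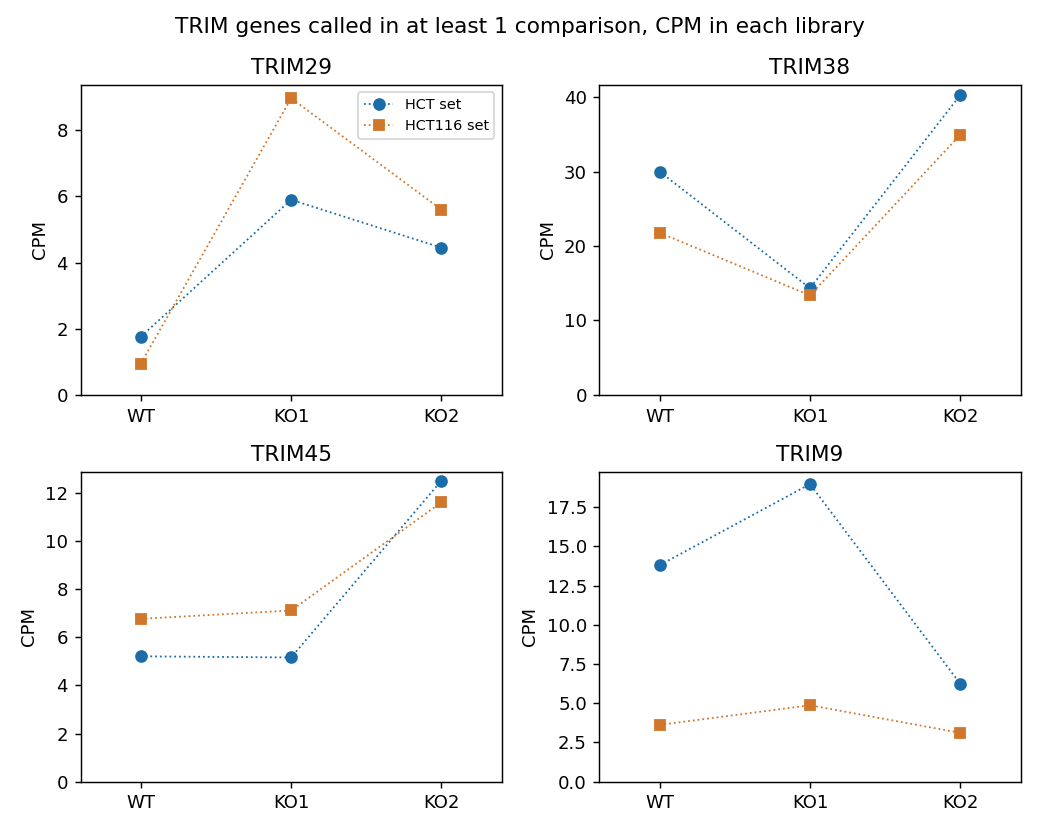
CPM of TRIM29, TRIM38, TRIM45 and TRIM9 in each of the 6 libraries, by group, with dotted lines joining the libraries of a set (circles HCT, squares HCT116). TRIM29 was at 0.944 to 1.76 CPM in WT and at 4.45 to 8.97 CPM in the 4 knockout libraries, and TRIM38 was lowest in both KO1 libraries.

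In all, 3 of 41 members (7.32%) were called in KO2 against KO1, namely TRIM38 and TRIM45, which were higher in KO2, and TRIM9, which was lower. Over all tested genes 9.62% were called there (4.24% higher in KO2 and 5.39% lower), so the share of the family was not above that of other genes. Some cell type markers were called in the same comparison. KRT8, KRT18 and CDH1, 3 of 5 tested epithelial markers, were lower in KO2 than in KO1 (log2 −0.75, −0.78 and −0.46, edgeR adjusted p of 0.0109 to 0.0416). The other tested epithelial markers did not pass. CDX2 was higher in KO2 (log2 0.52, edgeR adjusted p = 0.0619) and EPCAM was at −0.05 (edgeR adjusted p = 0.859). CD68 was lower in KO2 (−1.25, edgeR adjusted p = 0.0248). The part of these markers in the TRIM38, TRIM45 and TRIM9 differences was not tested.

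Of 7 interferon-inducible members in the tables, 6 were tested. TRIM69, which assembles on microtubules and restricts some RNA viruses, had 0 to 4 reads per library and was left out. TRIM26 and TRIM34 were not among the genes listed for both knockout lines. With the second guide all 6 tested genes had a positive log2 fold change, from 0.16 to 0.65 with a median of 0.30, and 0 of 6 passed the test (edgeR unadjusted p under 0.05 for 1, TRIM38). With the HCT or the HCT116 library of KO2 left out, 5 of 6 were positive. The other 35 tested TRIM genes had a median of 0.11 with 21 positive and 2 called. In KO1 the 6 genes had a median of 0.06, with 3 positive and TRIM38 as the only one called.

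TRIM5, whose protein binds retroviral capsids, was at 32.5 and 17.7 CPM in WT, 48.2 and 23.7 CPM in KO1 and 32.7 and 25.4 CPM in KO2. It was higher in KO1 within each set, at a log2 fold change of 0.50 ± 0.18 that did not pass (edgeR adjusted p = 0.364). With 1 library left out it ran from 0.27 to 0.68. It stayed at 0.50 and 0.49 without the HCT or the HCT116 library of KO2. TRIM22, an antiviral neighbour of TRIM5 on chromosome 11, had few reads, with 16 and 10 in WT, 19 and 44 for KO1, and 29 and 20 for KO2. The knockout libraries all lay above WT in CPM, but the log2 fold changes of 1.25 ± 0.54 and 0.65 ± 0.55 had edgeR adjusted p of 0.519 and 0.576. Without the HCT116 library of KO1, TRIM22 was at 0.34 in KO1 on the log2 scale.

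TRIM25, the ligase that modifies the RNA sensor RIG-I, was abundant and even, at 203 and 196 CPM in WT, 223 and 220 CPM in KO1 and 233 and 212 CPM in KO2. Its knockout libraries all lay above WT, by a log2 fold change of 0.15 ± 0.12 in KO1 and 0.16 ± 0.12 in KO2 (edgeR adjusted p of 0.830 and 0.514). TRIM21, the cytosolic antibody receptor, was at 18.1 and 19.2 CPM in WT, 15.6 and 21.3 CPM in KO1 and 23.0 and 23.9 CPM in KO2, so that KO2 alone was clear of WT (log2 0.33 ± 0.17, edgeR adjusted p = 0.329). TRIM14, a RING-less adaptor of mitochondrial antiviral signalling, ran from 36.9 to 55.1 CPM with all groups overlapping, at log2 fold changes of −0.04 ± 0.17 in KO1 and 0.23 ± 0.16 in KO2. Exons of TRIM14, TRIM25 and TRIM5 overlap other genes of the tables (NANS; C17orf67 and DGKE; AC104389.4), so some reads may be shared.

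The libraries of KO2 were both above those of WT for 4 of these 6 genes (TRIM21, TRIM22, TRIM25 and TRIM38) and both below for 0. Over all 41 members the counts were 8 higher and 1 lower (19.5% and 2.44%), beside 11.9% and 8.48% of all tested genes. In KO1 against WT the counts were 3 higher and 4 lower of 41 (7.32% and 9.76%), beside 6.86% and 5.71% of all tested genes. KO2 lay above KO1 for 11 members and below for 4 (26.8% and 9.76%), beside 13.3% and 11.5%.

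Several of these TRIM proteins act in the interferon and RNA-sensing pathway. Its genes were listed with earlier results of these data known, so the shares given here describe the list and do not test it. Of its 21 tested genes 5 rose, 0 fell and 16 did not pass in KO2 (23.8% called, beside 4.61% of all tested genes, of which 2.15% higher). The median log2 fold change was 0.35 with 20 of 21 positive, beside −0.00013 and 6338 of 12678 over all tested genes, while 0 pathway genes were called in KO1 (median 0.04, edgeR unadjusted p under 0.05 for 0). DDX58, which encodes RIG-I, the substrate of TRIM25, was at 16.4 and 10.8 CPM in WT, 12.5 and 11.0 CPM in KO1 and 50.6 and 23.6 CPM in KO2. It rose 2.65-fold in KO2 (log2 1.40 ± 0.21, edgeR adjusted p = 0.00382). IFIH1, which encodes the RNA sensor MDA5, the substrate of TRIM65, rose by 1.39 ± 0.20 on the log2 scale (edgeR adjusted p = 0.00329). The transcription factor gene STAT2, the ubiquitin-like modifier ISG15 and the antiviral protein gene ZC3HAV1 rose by 0.55, 0.63 and 0.55 on the log2 scale, with edgeR adjusted p of 0.0131 to 0.0434. DDX58 and IFIH1 were called with each library left out in turn, whereas the calls of ISG15, STAT2 and ZC3HAV1 were lost without either WT library (edgeR adjusted p of 0.0634 to 0.263), and those of STAT2 and ZC3HAV1 also without either KO1 library (0.0654 to 0.0967). The count for KO2 was 3 by DESeq2 and 0 without the set term. It moved with 1 library left out, lowest when either WT library was dropped and highest when the HCT116 library of KO2 was. In KO2 against KO1, 4 of the 21 rose (19%) and 0 fell, beside 9.62% of all tested genes called there, 4.24% higher and 5.39% lower.

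**Figure D3:**
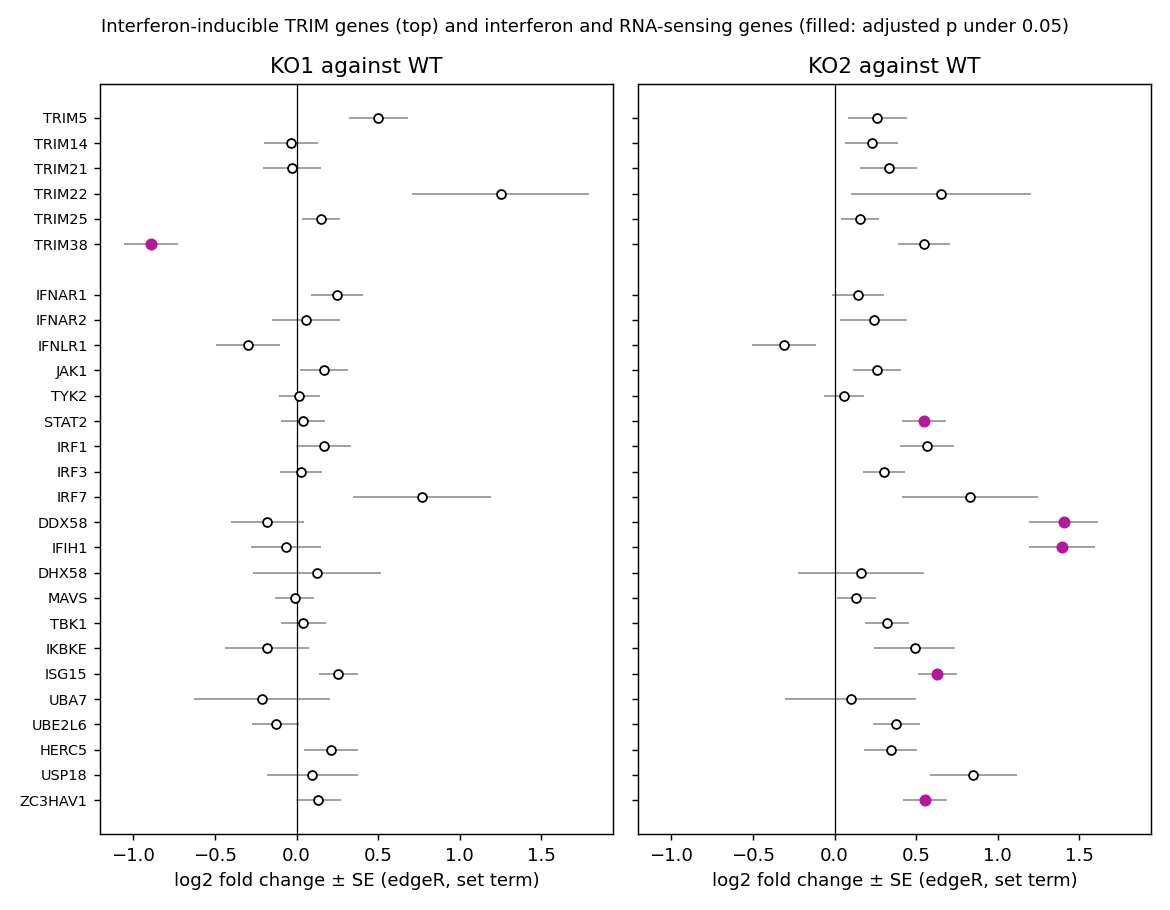
Log2 fold change ± SE against WT of the 6 tested interferon-inducible TRIM genes and, below them, the 21 tested interferon and RNA-sensing genes, for KO1 (left) and KO2 (right), filled where the edgeR adjusted p was under 0.05. TRIM38 is the filled TRIM gene in KO1, and 5 pathway genes are filled in KO2.

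Of the 13 remaining PRY-SPRY members tested, 0 were called in any comparison between groups (edgeR unadjusted p under 0.05 for 0 in KO1 against WT and 2 in each comparison with KO2), with log2 fold changes of −0.21 to 0.16 in KO1 and −0.21 to 0.54 in KO2. Over all 12678 tested genes, edgeR unadjusted p was under 0.05 for 1122 with the first guide, 2460 with the second and 3172 between guides. These counts are the background for this list and for the other short lists below. A short list with 0 called is therefore not shown to be steadier than other genes. TRIM47 was at 126 and 205 CPM in WT, 134 and 209 CPM in KO1 and 110 and 191 CPM in KO2. TRIM65, the MDA5 ligase, was at 84.9 and 113 CPM in WT, 96.1 and 98.2 CPM in KO1 and 74.8 and 95.9 CPM in KO2. Both overlapped between WT and KO2 and were lower in KO2 within each set, by log2 differences of −0.14 ± 0.12 and −0.21 ± 0.13 that did not pass (edgeR adjusted p of 0.554 and 0.427).

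The chromatin-binding members with a PHD finger and bromodomain were likewise uncalled, 0 of 4 in each comparison between groups (edgeR unadjusted p under 0.05 for 1, in KO2 against WT). TRIM28 was at 796 and 1954 CPM in WT, 801 and 1670 CPM in KO1 and 759 and 1518 CPM in KO2, so that the sets lay far apart and the groups overlapped. Its log2 fold change was −0.11 ± 0.14 in KO1 and −0.22 ± 0.14 in KO2 (edgeR adjusted p of 0.904 and 0.430). Of 13 genes for TRIM28 silencing partners, 0 were called with either guide (edgeR unadjusted p under 0.05 for 1 in each comparison with WT).

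Members with NHL repeats (3 tested) and the membrane-anchored ones (2 tested) had log2 fold changes of −0.13 to 0.31 over both guides, with 0 called (edgeR unadjusted p under 0.05 for 0). Of the COS-box members, which bind microtubules or the sarcomere, 4 were tested and none but TRIM9 was called. Among the members without a further carboxy-terminal domain, TRIM8, a regulator of cytokine signalling, was at 106 and 103 CPM in WT, 125 and 96.4 CPM in KO1 and 66.4 and 90.5 CPM in KO2. Both KO2 libraries of TRIM8 lay below the other 4, by −0.42 ± 0.17 against WT on the log2 scale, which did not pass (edgeR adjusted p = 0.200). Without the HCT116 library of KO2 that value was −0.76, and without the HCT library of KO2 it was −0.11. TRIM73 and TRIM74, near-identical copies whose reads may have been split, had standard errors of 0.39 to 0.60 and were not called, and TRIM16 and TRIM16L are close copies too.

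**Figure D4:**
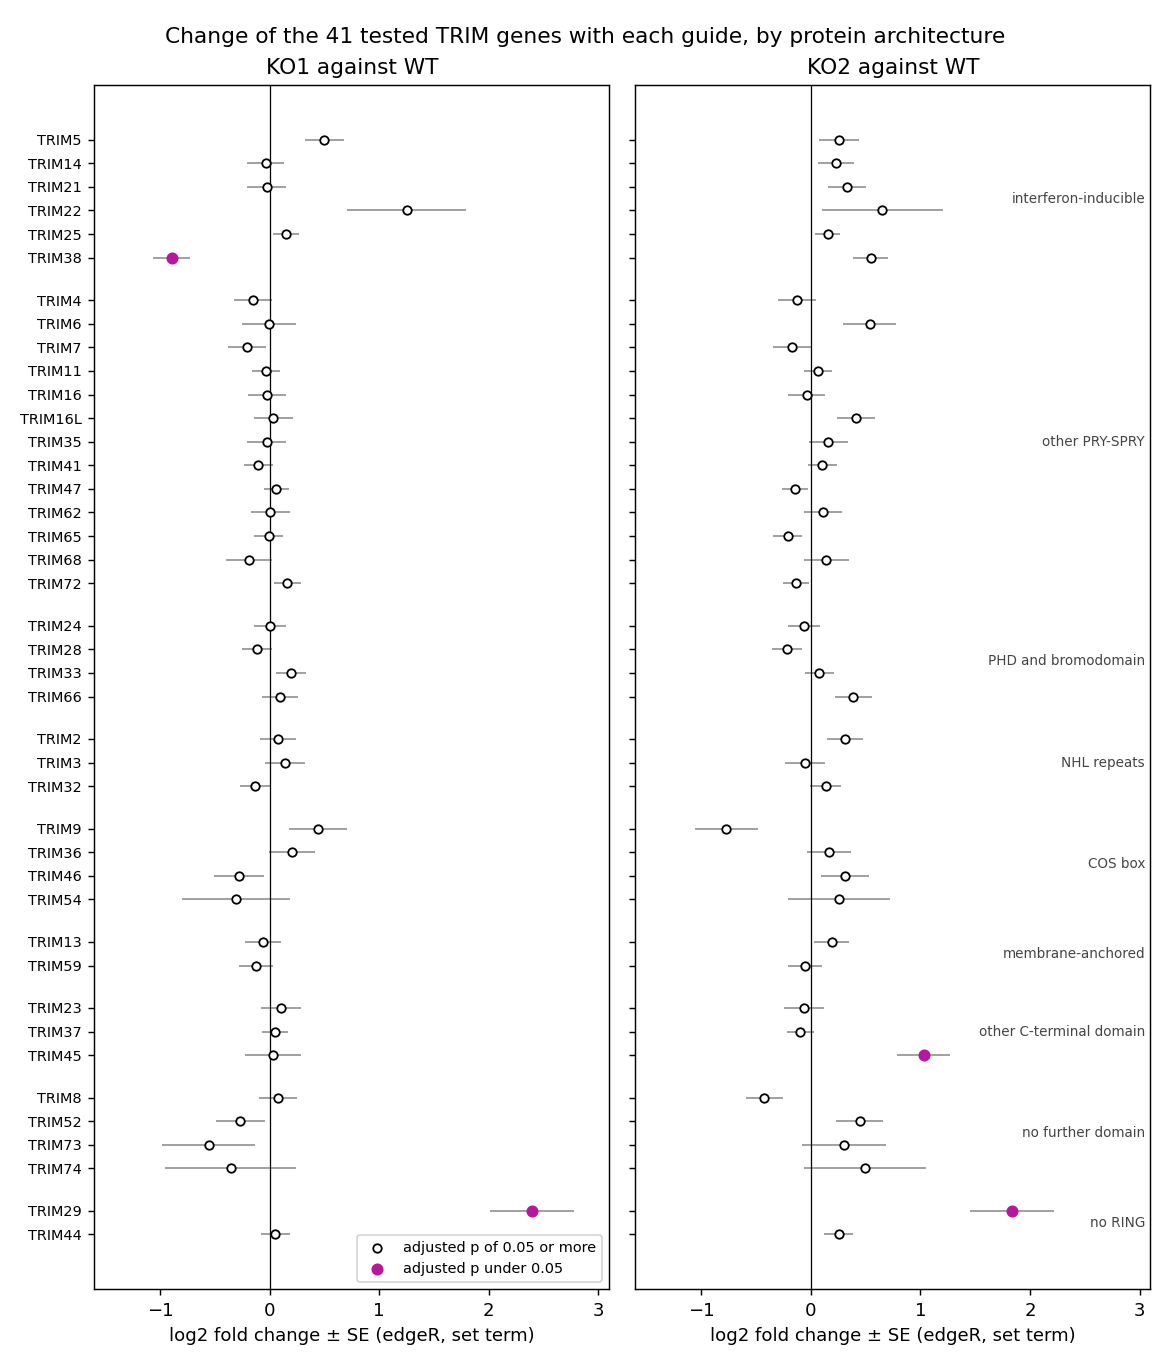
Log2 fold change ± SE against WT of the 41 tested TRIM genes for KO1 (left) and KO2 (right), grouped by protein architecture, filled where the edgeR adjusted p was under 0.05. TRIM29 stands at 2.39 and 1.84, TRIM38 at −0.89 in KO1 and TRIM45 at 1.03 in KO2.

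Relatives of the family that carry no TRIM number were examined in the same fit, 10 of 14 being tested. TRIML2, a TRIM-like gene, was at 8.79 and 14.1 CPM in WT, 9.25 and 11.4 CPM in KO1 and 18.0 and 27.2 CPM in KO2. It rose in KO2 by 0.99 ± 0.19 on the log2 scale (edgeR adjusted p = 0.0135), a call that was lost without the HCT library of WT (edgeR adjusted p = 0.107). It was also higher in KO2 than in KO1, by 1.10 ± 0.19 (edgeR adjusted p = 0.0040), which was lost without the HCT116 library of KO1 (0.0521). MID1, a microtubule-bound ligase, was higher in KO2 than in KO1 by 0.72 ± 0.14 (edgeR adjusted p = 0.00827), a call lost without the HCT or the HCT116 library of KO1 (edgeR adjusted p of 0.0850 and 0.117). None of the 10 was called in KO1 against WT (edgeR unadjusted p under 0.05 for 1). Of 13 E2 enzymes that serve TRIM ligases, 0 were called in any comparison between groups. Their edgeR unadjusted p was under 0.05 for 1 in each comparison with KO2 and 0 in KO1 against WT. Beside the counts over all tested genes given above, this does not set the list apart from other genes.

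The sets differed for more TRIM genes than the guides did. In the same fit 23 of 41 members (56.1%) were called between the HCT116 set and the HCT set, 11 higher in the HCT116 set and 12 higher in the HCT set, beside 63.9% of all tested genes (31.8% and 32.1%). Of the PRY-SPRY members outside the interferon list, 9 of 13 were higher in the HCT116 set and 2 in the HCT set. TRIM28 was higher in the HCT116 set (log2 1.12 ± 0.11), whereas the other chromatin-binding members, TRIM24, TRIM33 and TRIM66, were higher in the HCT set (log2 −0.80, −0.90 and −0.42). The largest difference was that of TRIM9 (log2 −1.66 ± 0.23), followed by TRIM2 (−1.27 ± 0.13), all with edgeR adjusted p of at most 0.0175.

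The summed CPM of the 48 members was 2397 to 2444 in the HCT libraries and 3239 to 3631 in the HCT116 libraries. TRIM28 supplied 31.7% to 33.1% of the sum in the former and 46.9% to 53.8% in the latter. The interferon-inducible members summed to 325 and 309 CPM in WT, 339 and 336 CPM in KO1 and 386 and 350 CPM in KO2, of which TRIM25 was the greater part. The libraries of both knockout groups were above WT in that sum, as they were for TRIM25 alone, and the sum was not tested. Taken singly, 3 of the 6 tested genes had a positive log2 fold change in KO1, with a median of 0.06. In KO2 all 6 were positive, with a median of 0.30. Of all tested genes, 6.86% in KO1 and 11.9% in KO2 had both libraries above both of WT.

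The set difference moved with base composition. Members higher in the HCT116 set had a median transcript GC content of 54.0% and those higher in the HCT set 43.0%, with 51.7% for members not called. Over all tested genes these medians were 56.7%, 42.6% and 49.1%. Across the 41 members the set difference and GC content had a Spearman rho of 0.55 and a Pearson r of 0.51, and across all 12678 genes 0.55 and 0.53. Genes are not independent replicates and share the same 6 libraries, so these are descriptions. TRIM9, at 52.1% GC and higher in the HCT set, and TRIM59, at 34.4% GC and higher in the HCT116 set, lay off this relation. Exons of TRIM59 overlap SMC4 and those of TRIM66 overlap RPL27A, each on the opposite strand, so some reads may be shared. The part of GC content in the set difference was not tested.

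**Figure D5:**
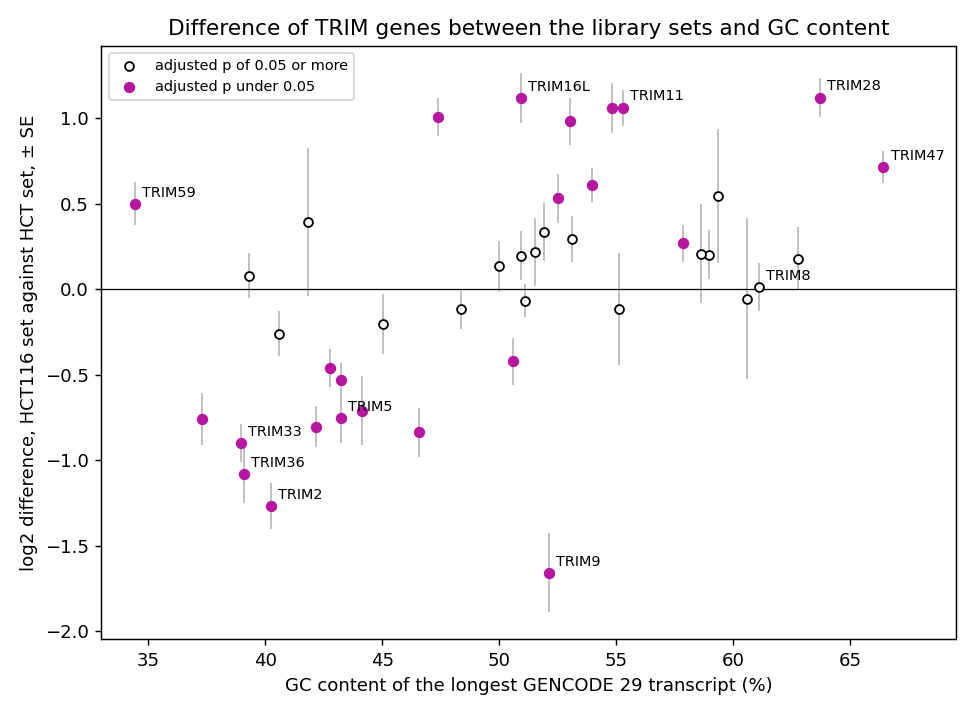
Log2 difference ± SE between the HCT116 set and the HCT set for the 41 tested TRIM genes against the GC content (%) of the longest transcript, filled where the edgeR adjusted p was under 0.05. TRIM28 (1.12) lies at high GC and TRIM2 (−1.27) at low GC, with TRIM9 (−1.66) in between.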

How the data were processed

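The 6 poly(A) RNA-seq libraries came with deposited read counts per gene symbol, made by the authors before normalization, per the file headers. The deposited tables also hold the authors' own log2 fold changes and p-values per gene, per the file headers. Tools listed in the submitters' processing notes, with no roles, are DESeq2, STAR and HTSeq 0.6.0, and the build listed there is hg18. Another 40 per-sample columns were not used. Members, lists and the set term were chosen with earlier results of these data known. 1 TRIM gene and 1 other gene are not reported here.

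Counts were tested with edgeR 4.0.16 in R 4.3.3 (limma 3.58.1): TMM, filterByExpr with a minimum count of 10, quasi-likelihood tests over the 6 libraries together, and p-values adjusted by Benjamini-Hochberg over 12678 genes with a threshold of 0.05. Standard errors (SE) are the absolute log2 fold change over the square root of F. CPM use TMM-scaled library sizes, and the floor of 3 counts covers counting error only. The model held group and set (name prefix). The prefix was taken to pair the libraries across groups and entered as a block, although no label calls it a replicate. Deviations from group means correlated across genes at 0.867, 0.815 and 0.783. Such values show a set difference that the groups share, not what the prefix stands for. The set term left 2 residual degrees of freedom and lowered the biological coefficient of variation from 0.383 to 0.118. Columns carry no replicate number, so those of the labels were not used.

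Named genes were MUC3A, the interferon-inducible members, every called member, the 5 members with the highest mean CPM, and up to 6 called genes from each list of relatives, interferon pathway, E2 enzymes and TRIM28 partners. Members named outside this rule (TRIM2, TRIM24, TRIM32, TRIM33, TRIM37, TRIM59, TRIM66, TRIM73, TRIM74 and the like) were named after their values were seen. Exon lengths, GC content, overlaps and gene positions came from GENCODE 29 on GRCh38, matched by symbol, since counting may have used another build. On simulated counts for KO2 against WT (12558 genes tested, 200 changed), 91% of 2-fold and 98% of 4-fold changes were recovered with 12 false calls. The changed genes were drawn only from those above a minimum expected count, and the spread was that of the same fit with the set term. Recovery at lower counts, or with another spread, was not simulated. Alternatives were DESeq2 size factors, no filter, DESeq2 1.42.0, limma-voom, no set term, and each library left out.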

Additional observations from a re-analysis of the deposited data

Results flagged for a closer look

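Changes with the 2 guides, measured from the same WT libraries, differed from each other for 3 TRIM genes in the direct test of KO2 against KO1. TRIM38 was higher in KO2 by 1.44 on the log2 scale (edgeR adjusted p = 0.000308), with KO1 below and KO2 above WT in both sets. TRIM45 was higher in KO2 by 0.997 (edgeR adjusted p = 0.0245), and TRIM9 was lower, at −1.21 (edgeR adjusted p = 0.0205). In both sets the difference had the same sign for each of these genes. MUC3A itself was at 28.6 to 52.9 CPM in KO1 and 24.6 to 30.0 CPM in KO2. With 2 libraries per group, no group was large enough to look for single libraries that stand apart.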

How the results depend on the processing

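Without the replicate block, 0 TRIM genes were called in each of the 3 comparisons between groups. Without a filter on low counts 5 were called in KO2 against KO1, TRIM52 and TRIM8 being added, and 3 in KO2 against WT, TRIM38 being added. In KO2 against WT 949 genes of any kind were then called, beside 585 with the filter. With 1 library left out the number of called TRIM genes moved in each comparison between groups and between the sets. In KO1 against WT the number of all genes called moved as well. Such a fit leaves 1 library in a group, so its counts are not read as a result about the family. DESeq2 size factors in edgeR, DESeq2 and limma-voom kept each count within 1.5 times its value. The count for KO2 against WT was lowest, at 0, without the HCT116 library of WT, and highest, at 8, without the HCT116 library of KO2, where that for KO2 against KO1 was also 8.

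Among 39 fold changes of named TRIM genes, direction changed in 19 refits, of which 2 were not leave-outs: TRIM25 in KO2 against KO1 was −0.0112 with DESeq2 size factors and −0.0111 with DESeq2. With 1 library left out, the log2 fold change in KO1 against WT ran from −0.27 to 0.16 for TRIM14, −0.23 to 0.16 for TRIM21, −0.24 to 0.028 for TRIM28, −0.16 to 0.20 for TRIM45, −0.19 to 0.15 for TRIM65 and −0.23 to 0.34 for TRIM8. In KO2 against WT it ran from −0.062 to 0.49 for TRIM14 and −0.029 to 0.57 for TRIM5, and in KO2 against KO1 from −0.022 to 0.55 for TRIM14, −1.35 to 0.30 for TRIM22, −0.047 to 0.075 for TRIM25 and −0.52 to 0.064 for TRIM5. None of these passed the test with all libraries, apart from TRIM45 in other comparisons. The cause was not tested. With a group reduced to 1 library, that library is assumed to vary like the others. Depth limits TRIM22, TRIM29, TRIM54, TRIM73 and TRIM74, which were below 10 CPM in each library.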
